A study of Mus musculus with 7 samples.

Results

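Collagens are the secreted or membrane-bound proteins whose chains wind around each other into a rod-like helix and build the fibrils, networks and anchors of the extracellular matrix. The collagen genes described here are the rows of the kidney expression data whose symbol is Col, a number, the letter a and a number. They were 44 of the 24328 gene rows. They were separated by name into 11 genes of fibrillar collagens (types I, II, III, V, XI, XXIV and XXVII), 8 genes of basement membrane collagens (the type IV chains and the multiplexins XV and XVIII) and 25 genes of other collagens. The data are poly(A) RNA-seq of the right kidneys of 3 LBR-null mice (4001, 4002 and 4007), homozygous for ic-J, an allele of Lbr without function (Lbr ic-J/ic-J), and 1 WT littermate (Lbr +/+, mouse 4009). LBR, the lamin B receptor, sits in the inner nuclear membrane and holds heterochromatin at the edge of the nucleus. All mice were 4 weeks old and carried the C57BL/6J background, and every cell of the LBR-null mice carries the mutation. Mice 4001, 4007 and 4009 had 2 libraries each and mouse 4002 had 1.

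In the kidney, fibrillar collagens of types I, III and V are made mainly by interstitial fibroblasts, pericytes and vascular cells and surround tubules and vessels. The chains encoded by Col4a1 and Col4a2 form the network found in nearly every basement membrane, while the chains of Col4a3, Col4a4 and Col4a5 form the mature network of the glomerular filter, secreted by podocytes. The other collagens include the microfibril-forming type VI, fibril-associated collagens with interrupted helices (FACITs) that decorate the surface of fibrils, and collagens that span the cell membrane.

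The deposited values were normalized counts, that is reads per gene divided by a factor for the depth of each library. Reads assigned to genes numbered 20694016 to 25296831 in the 5 LBR-null libraries and 22969010 and 26333284 in the 2 WT libraries. Lbr mRNA itself was at 322, 340 and 471 normalized counts in mice 4001, 4002 and 4007 and at 398 in the WT mouse, so it did not separate the genotypes and is no check of the labels. Mouse 4001 stood apart from the others. Its 2 libraries differed by a chi-square of 16.0 per degree of freedom, against 2.84 and 2.59 for the paired libraries of mice 4007 and 4009. It held high Xist (5785 normalized counts) together with some Ddx3y (141), whereas mice 4002 and 4009 had high Ddx3y (1516 and 1284) with low Xist (65.3 and 35.5), and mouse 4007 had high Xist (9940) with low Ddx3y (44.3). The skeletal muscle gene Acta1 was at 191 normalized counts in mouse 4001 and at 1.83 to 5.57 in the others. The podocyte gene Nphs1 was at 342 in mouse 4001 and at 1175 to 1391 in the others. Sex is not given in the sources used here. By Xist and Ddx3y, mice 4001 and 4007 differed from the WT mouse, so in them sex and genotype cannot be told apart. Whether the sample of mouse 4001 was mixed with other tissue or with another mouse was not tested, and counts are also given without it.

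Collagen mRNA was lower in the LBR-null kidneys. The summed normalized counts of the 44 genes were 62851, 63498 and 48834 in mice 4001, 4002 and 4007 and 115429 in the WT mouse, a mean of 50.6% of the WT value. Summed fibrillar collagens were at 50.3%, 30.9% and 23.8% of WT in the 3 LBR-null mice, with a mean of 35.0%. Basement membrane collagens were at 57.1%, 70.4% and 53.7% of WT, and the remaining collagens at 53.5%, 48.9% and 39.7%. The sums of all 3 classes were thus lower in every LBR-null mouse than in the WT mouse, and the fibrillar sum was the lowest relative to WT in each of them. That order rests on 3 of the 11 fibrillar genes: without Col1a1, Col1a2 and Col3a1 the fibrillar sum was at 67.1%, 52.1% and 57.7% of WT, above the remaining collagens in each mouse. Of the 24 remaining collagens tested, 12 had a log2 fold change below 0 and 12 above, so the lower sum of that class does not describe each gene. A lower sum can reflect fewer collagen-producing cells in the sample or less RNA per cell, which cannot be told apart in whole kidney.

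Gene by gene, 13 of the 44 collagens were at least 2-fold lower in the mean of the LBR-null mice than in the WT mouse, against 8.8% of all genes detected in either group and 7.04% of those with a mean of at least 5 normalized counts. The 13 were Col1a1, Col1a2, Col3a1, Col5a1 and Col27a1 among the fibrillar collagens, Col15a1 and Col18a1 among the basement membrane collagens, and Col6a2, Col6a3, Col6a5, Col8a2, Col14a1 and Col16a1 among the others. Another 5 collagens were at least 2-fold higher, against 22.7% of all detected genes and 14.5% of those with a mean of at least 5. They were Col9a1, Col13a1, Col17a1, Col19a1 and Col22a1, all outside the fibrillar and basement membrane classes. Without mouse 4001 the counts were 14 lower and 6 higher, against 9.07% and 21.7% of all detected genes. Among the 25 collagens with a mean of at least 100 normalized counts, 11 were 2-fold lower, against 5.07% of all genes at that level, and Col13a1 alone was 2-fold higher, against 4.79%. At the same level 18 of 25 had all LBR-null libraries below both WT libraries, against 29.3%, and Col13a1 was higher, against 22.2%.

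The libraries separated for more genes. In 21 of 44 collagens every LBR-null library was below both WT libraries, against 18.9% of all rows and 25.7% of genes with a mean of at least 5. In 5 every LBR-null library was above both, against 19.6% and 25.5%, which is a smaller share of the collagens than of all genes. The 21 comprised 7 of 11 fibrillar, 5 of 8 basement membrane and 9 of 25 other collagens. The groups overlapped in the remaining 18. Without mouse 4001 such genes numbered 21 lower and 8 higher, against 25.9% and 29.1% of all rows and 35.1% and 35.8% of genes with a mean of at least 5.

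The differences were tested with limma across all 17283 genes with a mean of at least 5, a level reached by 42 of the 44 collagens (all but Col2a1 and Col10a1). With 1 WT mouse, the spread came from the 3 LBR-null mice and the WT mouse was assumed to vary like them. No collagen reached an adjusted p under 0.05 with a 2-fold difference in limma, nor did any other gene. At an unadjusted p under 0.05, 13 collagens were lower, against 8.05% of all genes tested, and 4 were higher, against 10.7%. Without mouse 4001 these were 16 lower and 6 higher, against 13.4% and 15% of all genes tested. On the recovered reads, edgeR called 0 collagens, against 27 lower (0.156%) and 1 higher (0.00579%) of all genes. DESeq2 called 7 collagens lower (Col1a1, Col1a2, Col5a1, Col6a3, Col6a5, Col14a1 and Col16a1), against 3.33% of all genes, and 2 higher (Col13a1 and Col17a1), against 3.08%. The limma result turned on single mice, and a fit without 1 of them took its spread from the remaining LBR-null mice alone. Without mouse 4001 limma called 12 collagens lower and Col13a1 higher, against 3.83% and 2.94% of all genes. Without mouse 4002 it called 6 lower and 2 higher, against 1.66% and 1.96%. Without mouse 4007 it called 0 collagens, and 0 of all genes in either direction. The median log2 fold change was -0.43 over the 42 collagens tested, -1.26 over the fibrillar, -0.52 over the basement membrane and -0.05 over the other collagens, beside 0.01 over all genes tested. The last class median was above 0 without mouse 4002 (0.18) and with the second WT library alone (0.15), so it has no stable direction.

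**Figure D1:**
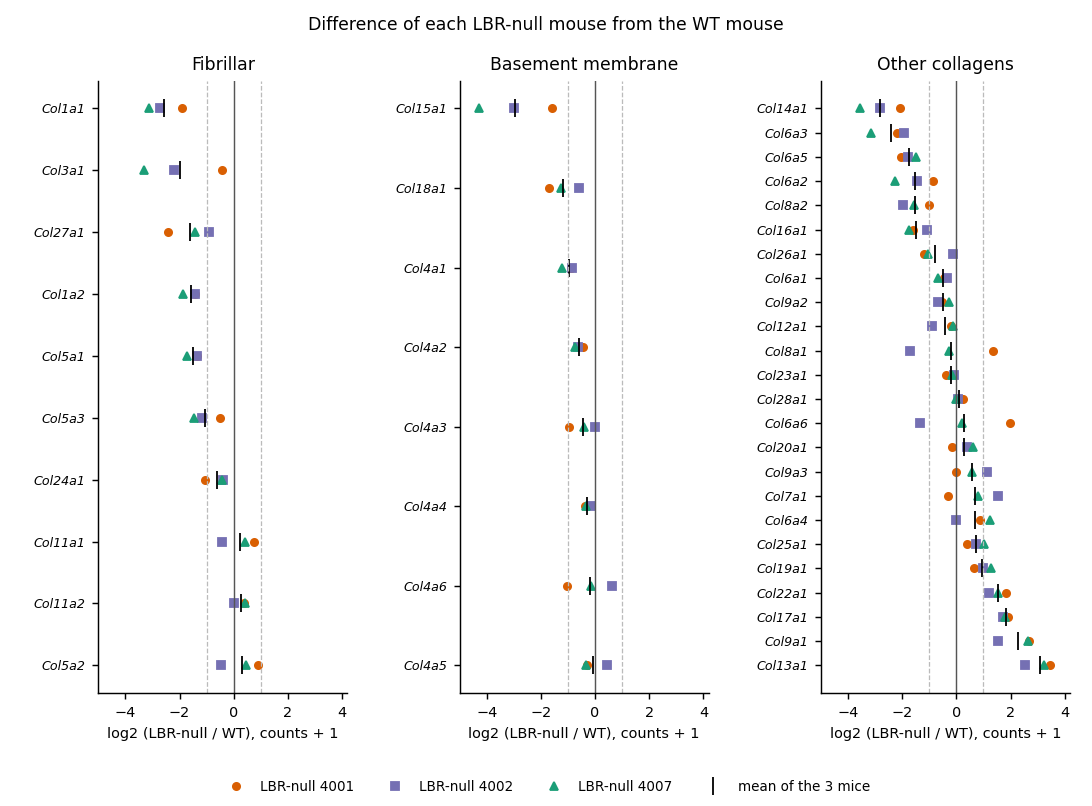
Log2 ratio of each LBR-null mouse (colored symbols) to the WT mouse for the 42 collagen genes tested, by class, with the mean of the 3 mice as a black tick and dashed lines at a 2-fold difference. Col1a1, Col14a1 and Col15a1 were among the genes beyond 2-fold lower in all 3 mice. Col9a1, Col13a1, Col17a1 and Col22a1 lay beyond 2-fold higher in all 3, while Col3a1 was spread from near WT in mouse 4001 to far below it in mouse 4007.

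Both type I chains were far below WT in every LBR-null mouse. Below, library values are given in the order of mice 4001 (2 libraries), 4002 (1) and 4007 (2). Col1a1, which encodes the main chain of type I collagen, was at 1742, 1809, 1016, 772 and 762 in the LBR-null libraries and 6605 and 6718 in the WT libraries. Col1a2, its partner chain, was at 5948, 5355, 5613, 4047 and 4289 in the LBR-null libraries and 15039.6 and 15235 in the WT libraries. The groups were far apart for both genes, with the lowest WT library above every LBR-null library. The mean over the LBR-null mice was 1186 ± 525 (SD, n = 3) for Col1a1 against 6661 in WT, 5.62-fold lower (log2 fold change -2.58, SE 0.46, limma adjusted p = 0.0938). Over the alternative fits its adjusted p ran from 3.79e-05 to 0.229. Col1a2 was 2.94-fold lower (log2 fold change -1.57, SE 0.31, limma adjusted p = 0.102).

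Col3a1 encodes the chain of type III collagen, which forms fine reticular fibers with type I. It was at 8530.3, 8050.4, 2459.9, 1105 and 1151 in the LBR-null libraries and 11066 and 11345 in the WT libraries. The WT libraries were the highest, but mouse 4001 came close to them, and the LBR-null mice differed from each other more than for the type I chains. The mean difference was 2.83-fold (log2 fold change -1.98, SE 0.97, limma adjusted p = 0.337). Without mouse 4001, the one nearest to WT, the limma log2 fold change was -2.75, and without mouse 4007 it was -1.31. In mouse 4001 the fibroblast gene Dcn, which encodes the proteoglycan decorin, was also high, with 8777 normalized counts against 2749 in mouse 4002, 5872 in mouse 4007 and 2862 in WT. Markers of such cells went both ways in mouse 4001: Lum was also highest there (1058), but Pdgfra (2234) and Pdgfrb (1398) were lowest there. The part of these genes in the Col3a1 value was not tested.

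Type V collagen nucleates type I fibrils and limits their width. Col5a1 was at 751, 759.6, 749.7, 592 and 575 in the LBR-null libraries and 1881 and 1997 in the WT libraries, and the 5 LBR-null values lay close together (2.78-fold lower; log2 fold change -1.49, SE 0.26, limma adjusted p = 0.0938). Its partner chain Col5a2 was at 2116, 2319, 852, 1539 and 1683 in the LBR-null libraries and 1184 and 1185 in the WT libraries. There the groups overlapped, with mouse 4002 below WT and the other LBR-null mice above it (log2 fold change 0.29, SE 0.51, limma adjusted p = 0.8). Col5a3, a minor chain, was at 127, 147, 86.0, 68.9 and 69.3 in the LBR-null libraries and 194 and 194 in the WT libraries, 1.99-fold lower without overlap.

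Col27a1, a fibrillar chain best known from cartilage, was at 359, 351, 1003, 725 and 678 in the LBR-null libraries and 1842 and 1972 in the WT libraries (2.78-fold lower; log2 fold change -1.60, SE 0.54, limma adjusted p = 0.19). In contrast to Col3a1, its lowest values were in mouse 4001. Col24a1 was scarce, at 5.74, 16.0, 18.1, 17.7 and 17.3 in the LBR-null libraries and 26.0 and 21.7 in the WT libraries. The cartilage-type chains Col11a1 and Col11a2 had 15.5 to 62.1 normalized counts in the LBR-null libraries and 17.3 to 37.8 in the WT libraries, with overlap, and Col2a1 had at most 8.20 in any library. Per kilobase of exon sequence, a scale on which genes can be compared, the WT kidney held 1335 normalized counts of Col3a1, 1246 of Col1a2, 1015 of Col1a1, 228 of Col5a1 and 123 of Col5a2. In the LBR-null mice the same genes were at 472 ± 454, 424 ± 69.6, 181 ± 80.1, 82.0 ± 11.5 and 163 ± 71.3 per kilobase (SD, n = 3), so Col5a2 was below Col5a1 in WT and above it in LBR-null mice 4001 and 4007. In mouse 4002 Col5a2 and Col5a1 were at 88.8 and 88.3 per kilobase of all annotated exons, but at 129 and 89.2 per kilobase of the longest transcript. The levels of Col1a2 and Col3a1 also rest on the length used. Over the 4 mice Col1a2 was at 629 per kilobase of all exons and 1429 per kilobase of the longest transcript, and Col3a1 was at 688 and 1037.

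**Figure D2:**
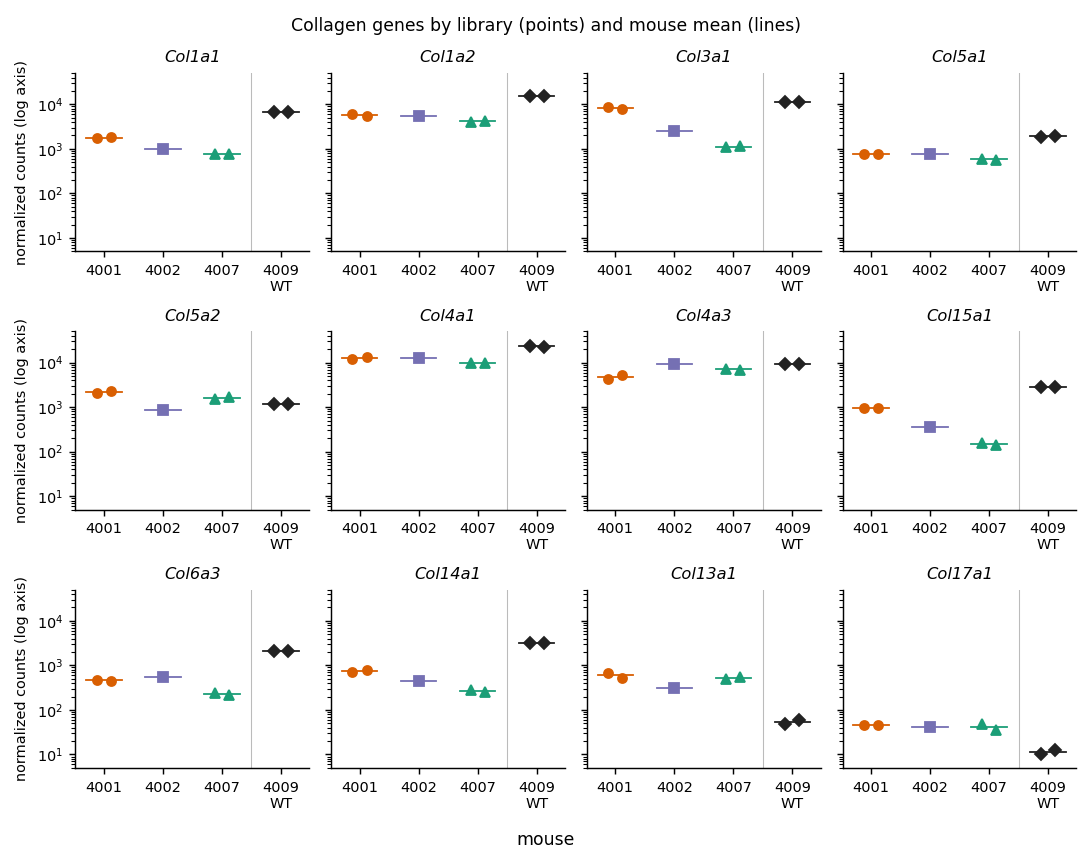
Normalized counts on a log axis of 12 collagen genes in each library (points, paired where a mouse had 2 libraries) with the mouse mean as a line. For Col1a1, Col1a2, Col3a1, Col5a1, Col4a1, Col15a1, Col6a3 and Col14a1 the WT libraries lie above all LBR-null libraries, for Col13a1 and Col17a1 below them, and for Col5a2 and Col4a3 the groups overlap.

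Type IV collagen is the scaffold of basement membranes, and Col4a1 had the highest level per kilobase of all collagens (2150.4 over the 4 mice, and 2216 per kilobase of the longest transcript). Per kilobase, WT held 3395 normalized counts of Col4a1, 2019 of Col4a2 and 942 of Col4a3, and the LBR-null mice 1736 ± 240.5, 1342 ± 146 and 714 ± 231 (SD, n = 3). Col4a1 was at 12068, 13180.5, 12929, 9855 and 10043 in the LBR-null libraries and 23287 and 23002 in the WT libraries, 1.96-fold lower (log2 fold change -0.98, SE 0.34, limma adjusted p = 0.198). Col4a2 was at 9381, 10476, 8688, 7937 and 8112 in the LBR-null libraries and 13728 and 12999 in the WT libraries, 1.5-fold lower (log2 fold change -0.60, SE 0.30, limma adjusted p = 0.352). Neither gene had overlapping groups. The differences were smaller than for type I collagen.

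The glomerular chains showed less difference. Col4a3 was at 4328, 5369.6, 9445, 7269 and 6842 in the LBR-null libraries and 9557 and 9225 in the WT libraries, with mouse 4002 level with WT and mouse 4001 lowest. Col4a4 was at 3047, 3827, 3991, 3514 and 3449.9 in the LBR-null libraries and 4501 and 4367 in the WT libraries, below WT in every LBR-null library by a small margin (1.22-fold; log2 fold change -0.29, SE 0.25, limma adjusted p = 0.584). Col4a5 and Col4a6, both on the X chromosome, had 2262 to 4075 and 220.5 to 802 normalized counts in the LBR-null libraries against 2961 and 2971, and 515 and 517, in WT, and overlapped. Mouse 4001, with the lowest Col4a3 and Col4a6, also had the lowest podocyte genes: the summed normalized counts of 10 podocyte markers were 11429.5, 21099 and 21780.1 in mice 4001, 4002 and 4007 and 27166.5 in WT, and 8 of the 10 were lower in every LBR-null library, against 25.7% of all genes tested. Their part in the Col4a3 value was not tested. None of the 6 type IV genes was 2-fold lower, and all 6 had a log2 fold change below 0. That sign was not stable for Col4a5 and Col4a6, which were at 0.0566 and 0.25 without mouse 4001.

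The multiplexins, which carry heparan or chondroitin sulfate and sit at the interface of basement membranes and stroma, were both 2-fold lower. Col18a1, the source of the fragment endostatin, was at 2463, 2566, 5326, 3261 and 3443 in the LBR-null libraries and 8243 and 7955 in the WT libraries (2.17-fold lower; log2 fold change -1.19, SE 0.43, limma adjusted p = 0.211). Col15a1, found around capillaries and interstitial cells, was at 949.6, 947, 354, 155 and 140.4 in the LBR-null libraries and 2887 and 2833 in the WT libraries. Every LBR-null library was below WT, but the mice spread widely, highest in mouse 4001 and lowest in mouse 4007 (5.92-fold lower in the mean; log2 fold change -2.96, SE 0.90, limma adjusted p = 0.159). Without mouse 4001, the one nearest to WT, its limma log2 fold change was -3.64, and without mouse 4007 it was -2.30.

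Type VI collagen forms beaded microfilaments around cells, built from the chains of Col6a1, Col6a2 and one of the longer chains Col6a3 to Col6a6. Col6a1, with 627 normalized counts per kilobase in WT the most abundant of the other collagens, was at 1919.9, 2084, 2149, 1651 and 1785 in the LBR-null libraries and 2864 and 2648 in the WT libraries (1.41-fold lower; log2 fold change -0.50, SE 0.25, limma adjusted p = 0.343). Col6a2 was at 1028, 923, 657, 376 and 366 in the LBR-null libraries and 1855 and 1719 in the WT libraries (2.68-fold lower; log2 fold change -1.53, SE 0.51, limma adjusted p = 0.183). Col6a3 was at 482, 439, 549, 245 and 219 in the LBR-null libraries and 2109 and 2069.8 in the WT libraries (5.05-fold lower; log2 fold change -2.42, SE 0.49, limma adjusted p = 0.103). All 3 chains were below WT in every LBR-null library, by a margin that widened from Col6a1 to Col6a3. Col6a5 was at 18.4, 27.5, 27.5, 29.8 and 39.2 in the LBR-null libraries and 99.2 and 95.9 in the WT libraries, 3.45-fold lower. Col6a4 and Col6a6 had at most 41.0 normalized counts in any library and overlapped.

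The FACITs split. Col14a1, which binds the surface of type I fibrils and regulates their early growth, was at 699, 798, 454, 282 and 256 in the LBR-null libraries and 3225 and 3152 in the WT libraries. The LBR-null values were far below WT in each mouse, with a mean 6.5-fold lower (log2 fold change -2.82, SE 0.53, limma adjusted p = 0.0969). Col16a1 was at 264, 187, 317, 192 and 212 in the LBR-null libraries and 662 and 699 in the WT libraries (2.74-fold lower; log2 fold change -1.48, SE 0.34, limma adjusted p = 0.114). Col12a1, close in structure to Col14a1, was at 375, 500.5, 269, 489 and 445 in the LBR-null libraries and 505 and 511 in the WT libraries, 1.3-fold lower. In the opposite direction, Col9a1 was at 33.3, 37.3, 15.5, 38.2 and 31.0 in the LBR-null libraries and 3.94 and 5.43 in the WT libraries, Col19a1 at 35.6, 31.1, 42.1, 52.2 and 52.9 in the LBR-null libraries and 21.3 and 20.8 in the WT libraries, and Col22a1 at 34.4, 33.7, 21.5, 27.9 and 26.4 in the LBR-null libraries and 10.2 and 7.24 in the WT libraries. All 3 were low in both groups. Col9a1 was 6.08-fold higher (log2 fold change 2.29, SE 0.63, limma adjusted p = 0.137), Col22a1 3.16-fold (log2 fold change 1.53, SE 0.51, limma adjusted p = 0.182) and Col19a1 2.03-fold (log2 fold change 0.96, SE 0.47, limma adjusted p = 0.33). Summed over the 9 FACIT genes, of which 2 were 2-fold lower and 3 were 2-fold higher, the LBR-null mean was 29.8% of WT, with Col14a1 making up most of the WT sum.

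The collagens with a transmembrane segment held the clearest higher genes. Col13a1, a cell-surface collagen of adhesion sites, was at 675, 524, 316, 489.9 and 541 in the LBR-null libraries and 47.2 and 60.6 in the WT libraries. The LBR-null mean was 477 ± 145 (SD, n = 3) against 53.9, 8.85-fold higher (log2 fold change 3.07, SE 0.41, limma adjusted p = 0.0795). Mouse 4002 was the lowest of the 3 and still far above WT. Col17a1, the hemidesmosome collagen of surface epithelia, was at 47.1, 45.3, 40.4, 48.4 and 35.5 in the LBR-null libraries and 10.2 and 12.7 in the WT libraries, with LBR-null libraries close to each other (3.74-fold higher; log2 fold change 1.81, SE 0.43, limma adjusted p = 0.115). Col23a1 and Col25a1, the remaining members of this type, overlapped, with log2 fold changes of -0.21 and 0.72. Per kilobase, Col13a1 was at 103 ± 31.5 in the LBR-null mice (SD, n = 3) and 11.7 in WT.

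Among the remaining other collagens, Col8a2, a network-forming chain, was at 29.9, 44.4, 18.9, 30.7 and 19.1 in the LBR-null libraries and 85.8 and 66.9 in the WT libraries (2.83-fold lower; log2 fold change -1.52, SE 0.52, limma adjusted p = 0.191). Its relative Col8a1 did not follow it: mouse 4001 was far above WT and mouse 4002 far below (40.4 to 374 normalized counts in the LBR-null libraries, 117 and 152 in WT). Col26a1 was at 226, 266, 515, 253 and 293 in the LBR-null libraries and 556 and 563 in the WT libraries, 1.62-fold lower, with mouse 4002 near WT. Col7a1, the anchoring fibril collagen, had 78.1 to 302 normalized counts in LBR-null libraries against 102 and 104 and overlapped. The others that overlapped, Col9a2, Col9a3, Col20a1 and Col28a1, and the untested Col10a1, were below 117 normalized counts in every library.

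For some chains that are built into the same molecule, or whose genes are neighbors, the ratio between them was not that of WT. Ratios within a library do not depend on its depth, and a ratio of 1 gene to another relative to WT does not depend on gene length. The ratio of Col1a1 to Col1a2 was 71.4%, 41.1% and 41.8% of the WT ratio in mice 4001, 4002 and 4007. The ratio of Col6a3 to Col6a1 was 30.4%, 33.7% and 17.8% of WT, and that of Col6a2 to Col6a1 was 75.1%, 47.1% and 33.3%. These ratios were below WT in every LBR-null library. For type V, the ratio of Col5a1 to Col5a2 was 20.8%, 53.7% and 22.1% of WT. With 1 WT mouse no test was made of the ratios.

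Several of these genes lie next to each other. Col4a1 (chr8:11198423-11312826, minus strand, mm9) and Col4a2 (chr8:11312805-11449287, plus strand) start head to head and overlap by 22 bases, and the ratio of Col4a1 to Col4a2 was 73.4%, 85.9% and 71.6% of WT, below WT in every LBR-null library. Col4a4 and Col4a3 (chr1:82447298-82583424 and chr1:82583496-82718634) also start head to head, with 71 bases between them, and the ratio of Col4a3 to Col4a4 was 66.6%, 112% and 95.7% of WT, with overlap. Col3a1 (chr1:45368383-45406551) and Col5a2 (chr1:45431166-45560127) lie tail to tail with 24614 bases between them, and the ratio of Col3a1 to Col5a2 was 39.5%, 30.5% and 7.40% of WT. On the same chromosome Col9a1 (chr1:24184449-24259577) and Col19a1 (chr1:24268729-24594311), both higher in every LBR-null library, lie tail to tail with 9151 bases between them. The summed ratio, which does depend on the exon lengths used, of the glomerular chains Col4a3, Col4a4 and Col4a5 to Col4a1 and Col4a2, per kilobase, was 106%, 179% and 156% of the WT ratio in mice 4001, 4002 and 4007. The ratio of Col4a3 to Col4a1 alone was 94.7%, 180.0% and 175% of the WT ratio, with mouse 4001 below WT in the mean and with overlap.

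**Figure D3:**
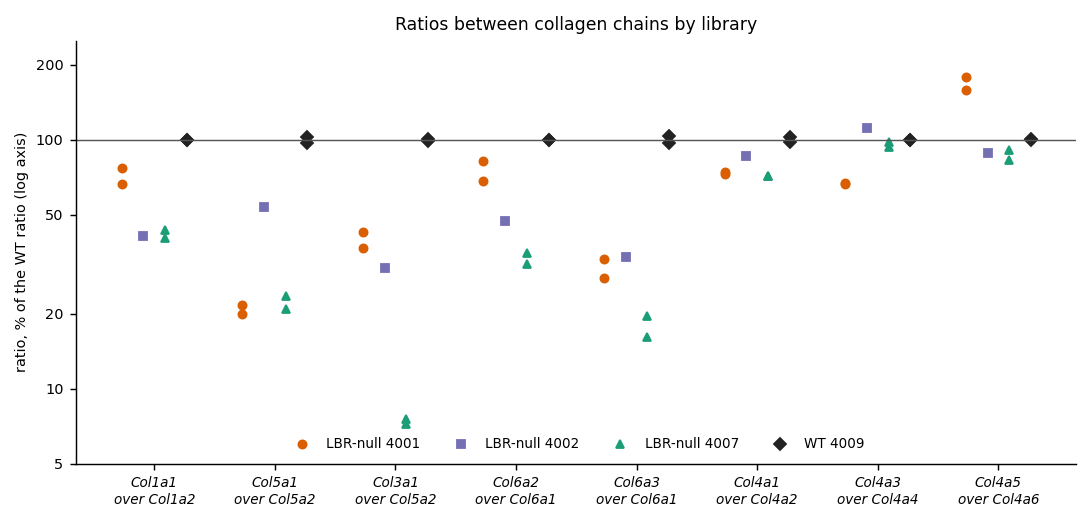
Ratio of the normalized counts of collagen chains in each library, as a percentage of the ratio in the WT mouse, on a log axis with a line at 100%. The first 6 ratios lie below WT in all 5 LBR-null libraries, lowest for Col3a1 over Col5a2 in mouse 4007, while Col4a3 over Col4a4 and Col4a5 over Col4a6 lie on both sides of it.

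The study sorts genes by whether their promoter lies in a CpG island, so the promoters of the collagens were examined. RefSeq windows of 300 bases (250 before to 50 after the start of the gene, GRCm38.p6) were at hand for 35 of the 44 collagens. The 200 bases before the start are printed, 5′ to 3′ on the strand of the gene, for 3 genes lower in all LBR-null libraries (Col1a2, chr6:4505418-4505617, plus strand; Col3a1, chr1:45311338-45311537, plus strand; Col15a1, chr4:47207812-47208011, plus strand) and for both transmembrane collagens that were higher (Col13a1, chr10:61979109-61979308, minus strand; Col17a1, chr19:47692043-47692242, minus strand). Capitals mark matches on either strand to CCAAT, to GGGCGG (an Sp1-type GC box) or to TATAAA, which do not overlap each other here.
Col1a2: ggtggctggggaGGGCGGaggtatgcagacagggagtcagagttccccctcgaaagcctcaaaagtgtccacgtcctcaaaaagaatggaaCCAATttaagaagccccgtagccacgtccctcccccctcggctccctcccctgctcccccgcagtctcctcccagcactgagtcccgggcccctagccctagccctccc
Col3a1: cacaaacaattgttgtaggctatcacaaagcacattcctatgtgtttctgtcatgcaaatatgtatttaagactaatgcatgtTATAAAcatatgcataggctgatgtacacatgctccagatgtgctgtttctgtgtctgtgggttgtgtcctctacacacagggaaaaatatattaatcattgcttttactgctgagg
Col15a1: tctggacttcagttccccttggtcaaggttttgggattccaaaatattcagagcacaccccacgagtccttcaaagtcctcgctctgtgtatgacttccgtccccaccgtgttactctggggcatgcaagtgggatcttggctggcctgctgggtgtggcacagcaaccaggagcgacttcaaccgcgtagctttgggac
Col13a1: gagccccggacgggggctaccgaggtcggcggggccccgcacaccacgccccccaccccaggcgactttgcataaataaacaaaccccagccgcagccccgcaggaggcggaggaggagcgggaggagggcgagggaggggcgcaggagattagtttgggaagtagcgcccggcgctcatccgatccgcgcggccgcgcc
Col17a1: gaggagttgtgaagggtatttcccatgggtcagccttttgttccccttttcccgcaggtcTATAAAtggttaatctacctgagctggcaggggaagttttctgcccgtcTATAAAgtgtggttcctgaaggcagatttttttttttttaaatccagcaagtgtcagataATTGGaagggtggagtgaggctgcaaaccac

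The 5 promoters are of different kinds. In the printed 200 bases Col13a1 had 23 CpGs, Col1a2 had 8, Col15a1 had 7, Col17a1 had 2 and Col3a1 had 0. Over the whole window Col13a1 was 68.0% G and C with an observed to expected CpG ratio of 0.837, and Col3a1 was 37.7% with a ratio of 0. Col1a2 held CCAAT at bases 109 to 105 before the start and GGGCGG at 188 to 183, and Col17a1 held TATAAA at 140 to 135 and again at 91 to 86. Counting as CpG-rich a window of at least 50% G and C with a ratio above 0.6, the rule was met by 11 of 35 collagens (31.4%), against 34.1% of 27025 RefSeq windows. It was met by 6 of the 17 with a window whose libraries were all lower than WT and by 2 of the 4 that were all higher. The study's own classes also used CpG islands found by experiment and a wider region, and were not applied to these windows. GGGCGG on either strand was in 22 of 35 collagen windows (62.9%), against 35.9% of all windows, CCAAT in 34.3% against 37.9%, and TATAAA in 14.3% against 14.2%. GGGCGG was in 11 of the 17 lower and 0 of the 4 higher members, and in 11 of the 14 whose groups overlapped.

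The machinery that makes collagen was also examined, with gene lists for each step. Enzymes that hydroxylate and glycosylate the chains had a median log2 fold change of -0.55 over 13 genes tested, and 8 of them were lower and 2 higher in every LBR-null library, against 25.7% and 25.5% of all genes tested. The higher genes, named here after their values were seen, were the collagen galactosyltransferases Colgalt1 and Colgalt2. Colgalt1 was at 1416, 1457 and 1547 in LBR-null mice 4001, 4002 and 4007 and 1304 in the WT mouse, and Colgalt2 at 578, 518 and 557 against 481. P4ha1, a catalytic subunit of prolyl 4-hydroxylase, was at 1006, 1024 and 831 in LBR-null mice 4001, 4002 and 4007 and 2042 in the WT mouse (log2 fold change -1.10, SE 0.25, limma adjusted p = 0.114). P3h3 was at 291, 317 and 327 against 646, Crtap at 866, 779.8 and 541 against 1247 and P3h2 at 1522, 2364 and 2086 against 3341, in the same order of mice. These form or belong to the prolyl 3-hydroxylase group. None passed the limma threshold.

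Serpinh1 encodes HSP47, the collagen-specific chaperone of the endoplasmic reticulum. It was at 3854, 3726 and 2091 in LBR-null mice 4001, 4002 and 4007 and 9456 in the WT mouse (log2 fold change -1.60, SE 0.40, limma adjusted p = 0.12), lower in all libraries. Creb3l1, a membrane-bound transcription factor that acts on collagen secretion genes, was at 154, 345 and 156 against 735 (log2 fold change -1.85, SE 0.51, limma adjusted p = 0.133). Sec24d, a coat protein of the vesicles that export procollagen, was at 481, 425 and 364 against 687 and Fkbp10, a prolyl isomerase, at 368, 375 and 297 against 519.6. All 8 tested genes of the chaperone and export list had a log2 fold change below 0, with a median of -0.39, and 4 were lower in every LBR-null library, against 25.7% of all genes tested.

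Processing and cross-linking genes differed in both directions. Pcolce, the enhancer of the protease that removes the procollagen C-propeptide, was at 1481, 1923 and 905 in LBR-null mice 4001, 4002 and 4007 and 4006 in the WT mouse (log2 fold change -1.55, SE 0.42, limma adjusted p = 0.133), and Loxl2, a cross-linking oxidase of type IV collagen, at 566, 752 and 533 against 1685 (log2 fold change -1.46, SE 0.29, limma adjusted p = 0.101). In contrast Lox, the oxidase that cross-links fibrillar collagen and elastin, was at 4381, 3719 and 5681 against 971 (log2 fold change 2.22, SE 0.31, limma adjusted p = 0.08), and the protease gene Tll2 was at 18.6, 18.9 and 17.5 against 4.17. Lox was higher in every LBR-null library, whereas Col1a1, Col1a2 and Col3a1 were lower. Over the 14 genes the median was -0.62, with 8 lower and 2 higher in every LBR-null library, against 25.7% and 25.5% of all genes tested.

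Of 12 genes for matrix proteins that bind collagen, 6 were lower and 0 higher in every LBR-null library, against 25.7% and 25.5% of all genes tested, and the groups overlapped in the remaining 6. Their median log2 fold change was -0.99. Fn1, fibronectin, was at 1058, 706 and 556 in LBR-null mice 4001, 4002 and 4007 and 3585 in the WT mouse (log2 fold change -2.26, SE 0.38, limma adjusted p = 0.0906). Bgn, the proteoglycan biglycan, was at 3094, 3580.2 and 3247 against 9143 (log2 fold change -1.47, SE 0.25, limma adjusted p = 0.0907). Sparc, a collagen-binding glycoprotein, was at 15507, 15424 and 10867 against 31503 and Tnc, tenascin C, at 333, 714 and 856 against 1656. Dcn and Lum, proteoglycan genes named here after their values were seen, were more than 2-fold higher in the LBR-null mean, with overlap. Dcn was at 8777, 2749 and 5872 against 2862 and Lum at 1058, 43.8 and 31.7 against 146. Lum was above WT in mouse 4001 alone, and its log2 fold change, -0.34, lay below 0. The per-mouse medians of this list were -0.26, -1.17 and -1.44, nearest to WT in mouse 4001, as for Col3a1.

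Basement membrane partners of type IV collagen showed less. Their median was -0.17 over 14 genes, with 5 lower and 2 higher in every LBR-null library, against 25.7% and 25.5% of all genes tested. Nid1, which links laminin to type IV collagen, was at 2993, 3053 and 2603 in LBR-null mice 4001, 4002 and 4007 and 5945 in the WT mouse (log2 fold change -1.05, SE 0.25, limma adjusted p = 0.115). The laminin chain genes Lamb3 and Lama2 were at 147, 600.1 and 309.9 against 813 and at 781, 592 and 583 against 983. Both were lower in every LBR-null library. Among 9 collagen receptor genes tested the median was -0.82, with 7 lower and 1 higher in every LBR-null library, against the same shares. Mrc2, the endocytic receptor that takes up collagen fragments, was at 407, 469 and 422 against 1708 (log2 fold change -1.98, SE 0.24, limma adjusted p = 0.0739). The collagen-binding integrin chain Itga2 was at 19.0, 72.2 and 58.9 against 119, Itga11 at 31.4, 31.8 and 50.1 against 17.5 and the inhibitory receptor Lair1 at 25.5, 19.8 and 26.2 against 54.9.

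TGF-beta signaling is a main inducer of fibrillar collagen in the kidney. The median of its 12 listed genes was -0.28, with 6 lower and 2 higher in every LBR-null library, against 25.7% and 25.5% of all genes tested. Tgfb1 was at 286, 407 and 434 in LBR-null mice 4001, 4002 and 4007 and 697 in the WT mouse (log2 fold change -0.91, SE 0.32, limma adjusted p = 0.204). Its target Ctgf was at 6729, 4781 and 9658 against 4007, and Ltbp1, which stores latent TGF-beta in the matrix, was at 644, 1046 and 882 against 1534. Every gene of these lists missed the limma threshold in both directions, as did all genes. DESeq2 called 2 modifying enzymes, 2 chaperone and export genes, 2 processing genes, 3 matrix genes, 1 basement membrane partner and 1 receptor lower, against 3.33% of all genes, and 1 processing gene higher, against 3.08%. In edgeR 1 receptor was called lower, against 0.156% of all genes. Without mouse 4001 the genes lower and higher in every LBR-null library were 10 and 3 of 14 modifying enzymes, 6 and 0 of 8 chaperone and export genes, 10 and 3 of 14 processing genes, 10 and 0 of 12 matrix genes, 7 and 5 of 14 basement membrane partners, 7 and 1 of 10 receptors and 6 and 3 of 12 TGF-beta genes. The shares over all genes with a mean of at least 5 were then 35.1% and 35.8%.

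**Figure D4:**
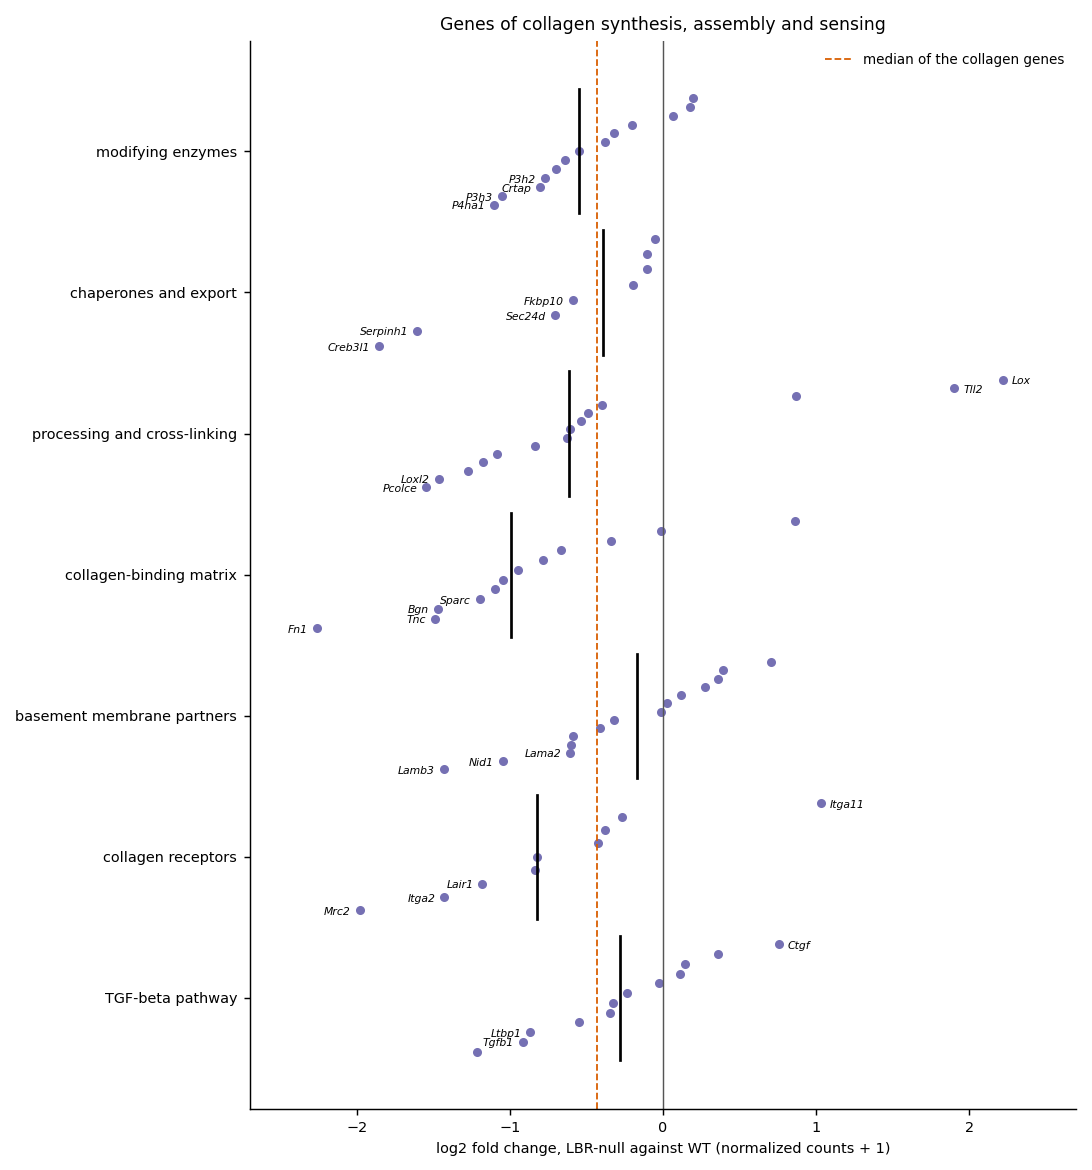
Log2 fold change (LBR-null against WT) of the tested genes of 7 lists of collagen synthesis, assembly and sensing, 1 point per gene, with the list median as a black line and the median of the collagen genes (-0.43) as a dashed line. Up to 4 of the genes with the largest difference in each list are named, and Lox and Tll2 stand apart on the higher side.

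Markers of the cells that could supply collagen were set beside these values. Of 12 fibroblast and pericyte markers, 3 were lower and 0 higher in every LBR-null library, against 25.7% and 25.5% of all genes tested. Their summed normalized counts were 12847 to 20198 in the LBR-null mice and 15161 in WT, and their median log2 fold change was -0.33. The sum was carried by Dcn: without it the markers summed to 11421, 10098 and 10102 in mice 4001, 4002 and 4007 and 12299 in WT, below WT in each LBR-null mouse. Without mouse 4001, 7 of the 12 were lower and 1 higher in every LBR-null library, against 35.1% and 35.8%. Pdgfra was at 2234, 2873 and 3478 against 2336 and Pdgfrb at 1398, 2162 and 2450.3 against 2684, so Pdgfra, a defining receptor gene of interstitial fibroblasts, lay on both sides of WT and Pdgfrb, that of pericytes, below it. Of 6 smooth muscle and myofibroblast markers, 4 were lower in every LBR-null library, with sums of 7430.4 to 9307 against 14743 and Acta2 at 2793, 1349.9 and 1627 against 3681. Their part in the collagen values was not tested.

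The counts of the other marker lists stand against the same 25.7% of all genes tested that were lower and 25.5% that were higher in every LBR-null library. Proliferation genes were low, with a median log2 fold change of -2.77. Of 10, 9 were lower in every LBR-null library, with sums of 1489 to 2115 against 4355, and Mki67 was at 117, 95.4 and 44.2 against 1052. Of 8 adipocyte markers 5 were lower in every LBR-null library, with sums of 5395.5 to 8003 against 6678.5 and Adipoq at 29.6, 2.58 and 7.83 against 120.3. Fabp4 made up most of that sum, and the remaining 7 markers summed to 449, 252 and 248 against 1681. Of 10 endothelial markers 3 were lower and 1 higher, with sums of 26607 to 35265 against 37198. Of 10 macrophage markers 8 were lower and 1 higher (2497 to 2894 against 4033), and of 6 mesangial markers 3 were lower (3336 to 6765 against 7221), with Ren1 at 0 in every library. Of 10 proximal tubule markers 7 were lower and 2 higher (123879.6 to 154605 against 241379), and of 8 collecting duct markers 0 were lower and 1 higher (38915 to 61526 against 40779). Muscle and cartilage markers were scarce: sums of 157 to 872 against 112 for 7 muscle genes and of 148 to 292 against 131 for 8 cartilage genes, both highest in mouse 4001. Of these, 3 muscle and 3 cartilage genes were higher in every LBR-null library and 1 cartilage gene was lower. The kidney label held, with the tubule and collecting duct genes Lrp2 and Aqp2 abundant in all mice. The part of any of these cell types in the collagen values was not tested.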

How the data were processed

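Kidney RNA of 4 mice was sequenced as 7 poly(A) libraries. Per the labels, the authors aligned reads with STAR 2.6.0 to mm9 and divided read counts per gene by DESeq2 1.25.1 size factors. The deposited signal is thus normalized counts, 1 file per library. The counting program and gene annotation are not given in the sources used here.

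Here whole reads were recovered from the steps of the low values (100% of values within 0.01 of a whole read). Libraries of a mouse are repeats of 1 animal, so they were averaged, and p-values measure the spread between mice. Genotypes were compared in R 4.3.3 with limma 3.58.1 (eBayes, trend) after taking log2(normalized counts + 1) of each of the 4 mouse averages. Genes averaging under 5 were left out, and p-values were adjusted over all remaining genes (Benjamini-Hochberg). A log2 fold change is on this scale and understates that of low genes. A call needed an adjusted p of 0.05 and a 2-fold difference, with 2 residual degrees of freedom. edgeR 4.0.16 and DESeq2 1.42.0 on reads summed per mouse were alternatives, as were other scalings, pseudocounts, no minimum, and leaving out each mouse or WT library. limma with its main settings, edgeR and DESeq2 were tested on simulated data, and the other alternatives were not.

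Gene coordinates and exon lengths came from the GENCODE annotation of mm9 (NCBIM37), where Col26a1 is listed as Emid2, and all 44 collagens had a gene model. Strand use in counting is unknown, so reads of opposite-strand exons that overlap Col1a1, Col4a1, Col4a2, Col5a1, Col9a3, Col10a1, Col15a1 and Col22a1 cannot be told apart from theirs. Promoter windows came from RefSeq (GRCm38.p6); none was used for Col1a1, Col2a1, Col4a3, Col5a2, Col9a3, Col12a1, Col14a1, Col22a1 or Col26a1.

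Values by library were given for the 5 collagens of each class with the highest counts per kilobase and for each collagen with a 2-fold difference or non-overlapping groups. In pathway lists up to 4 genes with the largest difference were named, in marker lists up to 3 in list order; some genes that this rule names are not reported here. Members and lists were chosen with earlier results of these data known. Mia3 and Col21a1, on 2 of the lists, were not analyzed here.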

Additional observations from a re-analysis of the deposited data

Results flagged for a closer look

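Among 44 collagen genes, class sums and chain ratios examined in the 5 LBR-null libraries, 4 had 1 library far from the other 4. Chance flags about 1 in 20 such groups, and libraries of 1 mouse are not independent. For Col24a1, library 1 of mouse 4001 held 5.74 normalized counts and the others, the second library of that mouse included, 16.0 to 18.1. Col26a1 had 515 in the single library of mouse 4002 and 226 to 293 in the others. The ratio of Col5a1 to Col5a2 was 53.7% of the WT ratio in that library and 20.0% to 23.5% in the others. The ratio of Col4a1 to Col4a2 was 85.9% of the WT ratio there and 71.5% to 74.3% in the others.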

How the results depend on the processing

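No paired analysis was possible because the numbers shared between groups count the libraries of 1 mouse, which were averaged. All 26 collagens whose libraries did not overlap kept the sign of their log2 fold change in all 13 alternative fits, as did 35 of the 42 tested. For the 26, fits that left out libraries or changed the pseudocount or minimum could not turn the sign, so they are no check of it. Counts of collagens called ranged from 0 to 12 lower and 0 to 2 higher when 1 LBR-null mouse was left out (12 and 1 without mouse 4001), and were 7 and 2 with DESeq2 and 0 with edgeR. Non-overlapping higher collagens numbered 5 to 8 without 1 mouse, and 2-fold higher ones 8 with the second WT library alone. The median over all collagens was -0.36 with a pseudocount of 5. That over the other collagens was -0.21 without a minimum, 0.15 with the second WT library alone, 0.0457 with the first library of each mouse and -0.13 to 0.18 without 1 mouse. Signs turned for 7 collagens whose groups overlapped. Without 1 LBR-null mouse the log2 fold change ran from -0.32 to 0.0825 for Col4a5, -0.59 to 0.25 for Col4a6, -0.0155 to 0.67 for Col5a2, -0.0182 to 0.58 for Col11a1 and -0.998 to 0.53 for Col8a1. Col8a1 was also at 0.30 with edgeR and DESeq2, Col11a2 at -0.0453 with the first libraries and Col28a1 at -0.13 with the first WT library. The cause was not tested. Depth limits Col2a1 and Col10a1, and 1 WT mouse limits every comparison.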
